A study of Mus musculus with 84 samples.

Results

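The genes described here are Myc and the D-type cyclins Ccnd1 and Ccnd2, in mammary glands, mammary tumors and lung metastases of mice. They were represented by every clone whose only gene symbol was Myc, Ccnd1 or Ccnd2, which gave 4 of the 15360 clones on the larger type of spotted cDNA array (the 15k arrays) and 3 of the 8832 clones on the smaller type (the 8.7k arrays). These were clone PP:7d19 for Myc, clone PP:11n7 for Ccnd1 and clones PP:6g4 and PP:24e3 for Ccnd2, the last of them on the 15k arrays only. Each clone gave a value on each array described.

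Sample RNA, labeled with Cy5, was hybridized together with a common reference RNA labeled with Cy3. The values are log2 ratios of sample to reference, so that 0 means the level of the reference, pooled from ovary, liver, spleen, kidney, thymus, pancreas, lung and lactating gland. The 15k arrays held 23 tumors of MMTV-Wnt-1 transgenic mice (Wnt-1 tumors), 12 tumors of MMTV-Neu transgenic mice (Neu tumors) and 7 hyperplastic mammary glands of MMTV-Wnt-1 mice. They also held 10 lung metastases of MMTV-Wnt-1 mice, 3 lung metastases of MMTV-Neu mice, 2 lung metastases in nontransgenic mice injected in the tail vein with cells of MMTV-Neu tumors, 3 samples of intestinal fat and 5 mammary glands of nontransgenic virgin mice. The 8.7k arrays compared here held 6 tumors of MMTV-Wnt-1 mice without functional p53 (p53 -/-) and 10 other Wnt-1 tumors. Both transgenes are driven by the long terminal repeat of mouse mammary tumor virus, and the Neu transgene is the rat cDNA without an activating mutation. The Wnt-1 tumors of both array types together came from mice aged 9 to 56 weeks, the Neu tumors from mice aged 32 to 60 weeks, and the p53 -/- tumors from mice aged 9 to 14 weeks. Hyperplastic and virgin glands were taken at 9 weeks and fat at 12 weeks, while no age was found for the metastases. MMTV-Neu and nontransgenic mice were FVB and MMTV-Wnt-1 mice were of mixed FVB, SJL and C57BL/6 background, so oncogene, age and strain cannot be told apart. The labels do not state that each array is a different mouse, so the p-values measure the spread between these arrays.

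Myc encodes a transcription factor that pairs with Max and activates genes of ribosome production, metabolism and growth. D-type cyclins bind the kinases Cdk4 and Cdk6, and the complexes phosphorylate the retinoblastoma protein Rb, which releases E2f factors and lets a cell enter S phase. In the mouse mammary gland Ccnd1 is needed for the growth of lobules and alveoli in pregnancy, and mice that lack it resist mammary tumors induced by Neu but not those induced by Wnt-1. Myc and human CCND1 have been described as targets of beta-catenin and TCF factors, the transcriptional arm of canonical Wnt signaling.

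The 3 genes had different orders of levels over the tissues of the 15k arrays. Myc averaged 2.29 ± 0.258 in Wnt-1 tumors (SD, n = 23), 2.17 ± 0.236 in metastases of MMTV-Wnt-1 mice (n = 10) and 1.70 ± 0.374 in hyperplastic glands (n = 7). It averaged 1.32 ± 0.249 in Neu tumors (n = 12), 1.26 ± 0.391 in the 5 metastases of Neu tumors, -0.11 ± 0.291 in virgin glands (n = 5) and -1.44 ± 1.17 in fat (n = 3). Neighbors in an order of means were set against each other by permutation tests, exact where a group had under 10 arrays. The family held 24 neighboring pairs over the 4 clones. For Myc, primary tumors and metastases of the same oncogene were not told apart, with p = 0.225 for MMTV-Wnt-1 (adjusted p = 0.318) and exact p = 0.715 for Neu (adjusted p = 0.817). The other neighbors in the Myc order differed at unadjusted p of 0.0179 or lower (adjusted p of 0.043 or lower). The step from virgin glands to fat had exact permutation p = 0.0179, the smallest that 3 against 5 arrays can give. It was not called by limma (adjusted p = 0.117).

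Ccnd1 followed another order, in which the means of the glands and the fat lay below those of the tumors of both oncogenes. Of the glands, hyperplastic gland 9 (1.03) overlapped the lowest Neu tumors, which were at 0.67, 0.70 and 0.99. It averaged 2.67 ± 0.283 in metastases of MMTV-Wnt-1 mice (n = 10), 2.40 ± 0.358 in Wnt-1 tumors (n = 23), 1.55 ± 0.345 in metastases of Neu tumors (n = 5) and 1.41 ± 0.441 in Neu tumors (n = 12). It averaged -0.13 ± 0.539 in hyperplastic glands (n = 7), -1.08 ± 0.241 in fat (n = 3) and -1.10 ± 0.469 in virgin glands (n = 5). Fat and virgin glands were not told apart (exact permutation p = 0.946, adjusted p = 0.946), nor were metastases and primary tumors of MMTV-Neu origin (exact permutation p = 0.521, adjusted p = 0.658). Metastases and tumors of MMTV-Wnt-1 mice had permutation p = 0.0411 (adjusted p = 0.0705), and the other neighbors had an adjusted p of 0.0289 or lower.

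Ccnd2 was highest in fat and lowest in Neu-derived tissue by both of its clones. Clone PP:6g4 averaged 1.89 ± 0.125 in fat (n = 3), 1.09 ± 0.487 in metastases of MMTV-Wnt-1 mice (n = 10), 0.77 ± 0.455 in Wnt-1 tumors (n = 23), 0.24 ± 0.650 in virgin glands (n = 5) and -0.51 ± 0.407 in hyperplastic glands (n = 7). It averaged -1.76 ± 0.405 in metastases of Neu tumors (n = 5) and -2.14 ± 0.590 in Neu tumors (n = 12). In this order the step from hyperplastic glands to metastases of Neu tumors passed adjustment (exact permutation p = 0.00253, adjusted p = 0.0152), and the other 5 steps had adjusted p between 0.0535 and 0.318. Clone PP:24e3 averaged 1.48 ± 0.449 in fat, between 0.24 and 0.51 in the 4 groups of virgin glands, hyperplastic glands, Wnt-1 tumors and their metastases, -1.45 ± 0.386 in metastases of Neu tumors and -1.47 ± 0.276 in Neu tumors. Inside that middle range no neighbors of clone PP:24e3 were told apart (permutation p between 0.253 and 0.896, adjusted p between 0.337 and 0.935). The step from hyperplastic glands, 1.69 above metastases of Neu tumors, had exact permutation p = 0.00126 (adjusted p = 0.0101).

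**Figure D1:**
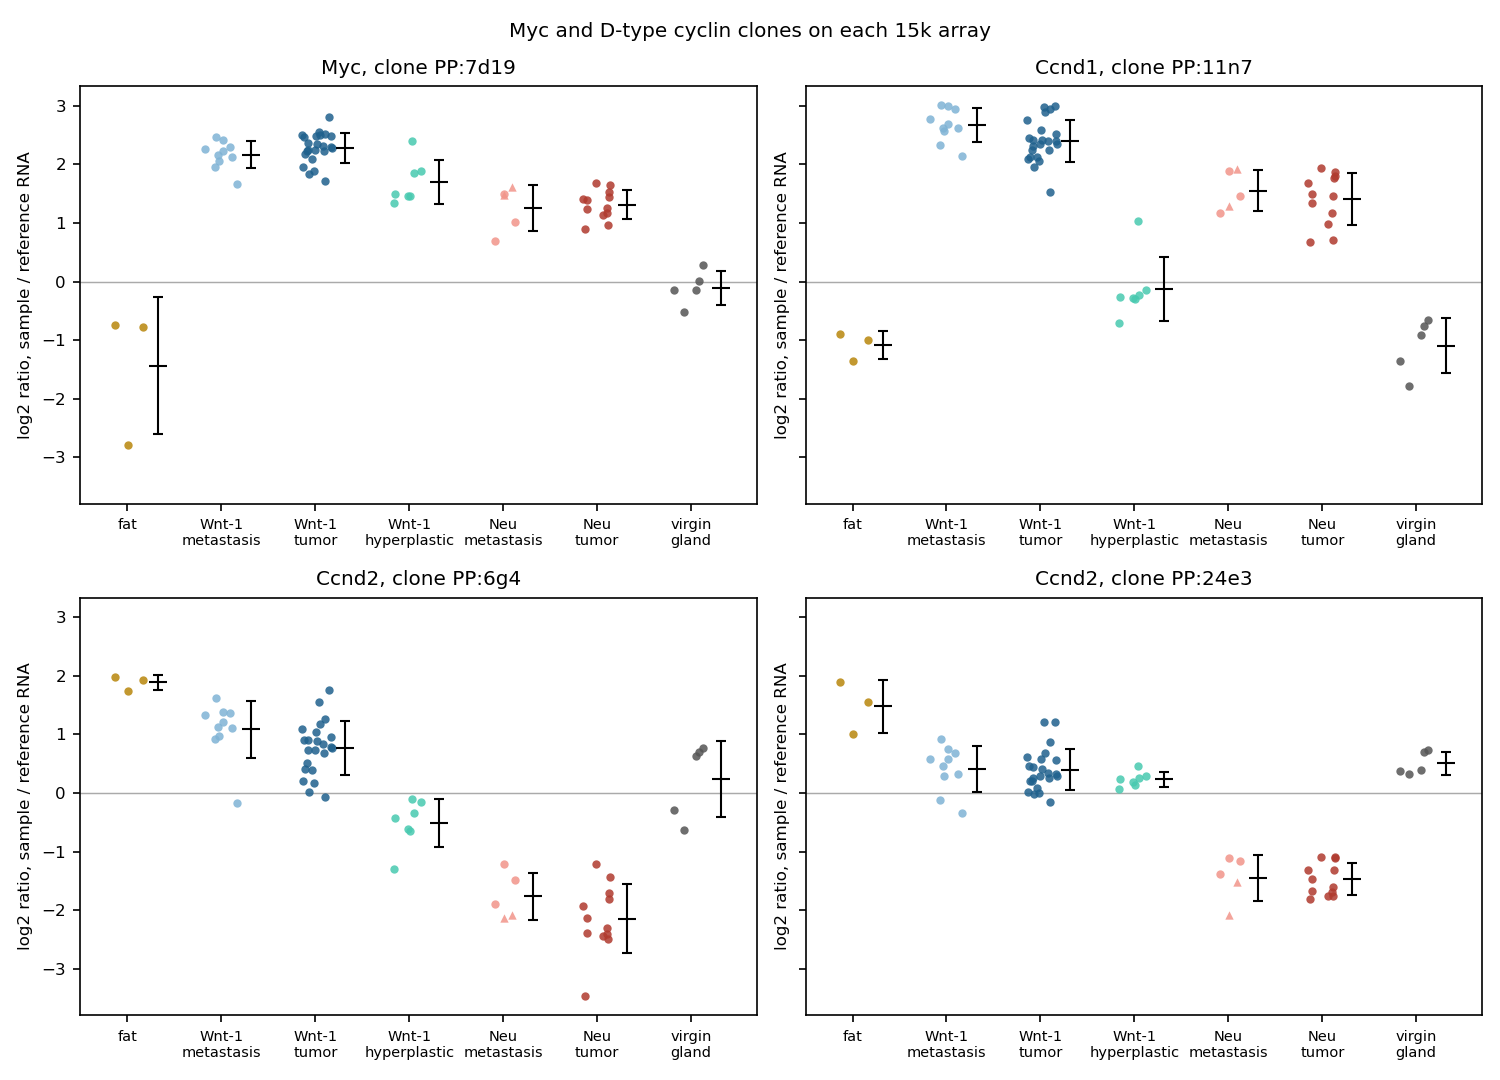
Log2 ratio of sample to reference RNA (vertical axis) for the clones of Myc, Ccnd1 and Ccnd2 on each 15k array, by tissue (horizontal axis). Points are arrays, triangles are metastases in injected mice, and black bars are the group mean with its SD. Myc and Ccnd1 lie lowest in fat and virgin glands, while Ccnd2 lies lowest in the 12 Neu tumors and the 5 metastases of such tumors.

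The tumors of the 2 oncogenes were compared first. Among all clones 43.6% were called in this comparison, by limma with a Benjamini-Hochberg adjusted p under 0.05 over all clones, and the 4 clones of Myc, Ccnd1 and Ccnd2 were among them, each higher in Wnt-1 tumors. Ccnd2 stood out in size. By clone PP:6g4 it had a lowest value of -0.07, a median of 0.78 and a highest value of 1.76 in Wnt-1 tumors, against -3.47, -2.21 and -1.21 in Neu tumors. No Wnt-1 tumor overlapped a Neu tumor, and here and below the share of all clones without overlap was not counted. The level was 7.54-fold higher in Wnt-1 tumors (log2 difference 2.92, SE 0.175, limma adjusted p = 4.38e-16). Clone PP:24e3 ranged from -0.15 to 1.22 with a median of 0.32 in Wnt-1 tumors, against -1.80 to -1.09 with a median of -1.54 in Neu tumors. It also kept the groups apart, with a 3.66-fold difference (log2 difference 1.87, SE 0.116, adjusted p = 1.02e-15 by limma). In RNA from whole tissue, fewer cells of a type and less RNA per cell cannot be told apart.

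Myc and Ccnd1 differed less between the tumors, by 1.96-fold and 1.99-fold. Myc ranged from 1.72 to 2.81 with a median of 2.29 in Wnt-1 tumors, against 0.91 to 1.69 with a median of 1.32 in Neu tumors, so that the groups did not overlap. Ccnd1 ranged from 1.53 to 3.01 with a median of 2.40 in Wnt-1 tumors, against 0.67 to 1.94 with a median of 1.48 in Neu tumors. Of the 23 Wnt-1 tumors 22 lay above the highest Neu tumor, and the remaining one, number 23, was at 1.53. Each of the 4 clones had p = 1e-05 in a permutation test of its own, the smallest that 100000 permutations can give.

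Genes of the same pathways were described from lists that left out Myc, Ccnd1 and Ccnd2, with clones averaged per gene. Over all genes 22.8% were called higher and 23% lower in Wnt-1 tumors than in Neu tumors, and the median log2 difference was -0.03. Of 17 measured partners and inhibitors of D cyclins, 8 were higher, 2 were lower and 7 were not called, with a median difference of 0.13. Cdk6, a kinase partner of D cyclins, was 1.93-fold higher (0.48 in Wnt-1 tumors and -0.47 in Neu tumors, adjusted p = 1.84e-10). Tfdp1, the partner of E2f factors, was 1.71-fold higher (adjusted p = 2.01e-09). Cdkn2d, an inhibitor of Cdk4 and Cdk6, was lower, at -0.35 in Wnt-1 tumors and 0.24 in Neu tumors (adjusted p = 7.58e-06). Cdkn1a, which encodes the inhibitor p21, was higher, at 0.61 in Wnt-1 tumors and -0.02 in Neu tumors (limma adjusted p = 0.00303). Rb1, which encodes Rb, was 1.155-fold higher in Wnt-1 tumors (limma adjusted p = 1.56e-06). Ccnd3, the third D-type cyclin, was at 0.44 in Wnt-1 tumors and 0.37 in Neu tumors and was not called (adjusted p = 0.424).

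Of 12 partners and antagonists of Myc, 4 were higher, 3 were lower and 5 were not called in Wnt-1 tumors (median difference 0.12). Max, the obligate partner of Myc, was at 0.29 in Wnt-1 tumors and 0.25 in Neu tumors (adjusted p = 0.541). Mxi1, which competes with Myc for Max, was lower, at 0.34 in Wnt-1 tumors and 0.82 in Neu tumors (adjusted p = 0.000302). Mxd4 and Mga, of the same list, were higher in Wnt-1 tumors. Their log2 differences were 0.19 for Mxd4 (limma adjusted p = 0.00215) and 0.36 for Mga (limma adjusted p = 0.00293). Among 20 Myc target genes 13 were higher and 2 lower (median difference 0.34). Nop58, a core protein of box C/D small nucleolar ribonucleoproteins, was 6.53-fold higher, at 2.08 in Wnt-1 tumors and -0.63 in Neu tumors (adjusted p = 2.30e-20). Ddx21, an RNA helicase of the nucleolus, was 2.15-fold higher (adjusted p = 5.63e-12).

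Of 13 other Wnt and beta-catenin targets 8 were higher and none lower in Wnt-1 tumors by limma (median difference 0.87), and quantile normalization called 1 of them lower. Axin2, a feedback inhibitor of the pathway, was at 1.32 in Wnt-1 tumors and -0.92 in Neu tumors, a 4.73-fold difference (adjusted p = 9.45e-14). Of 16 genes of S phase and mitosis 6 were higher and 10 not called (median difference 0.23), among them Mcm7, a subunit of the replicative helicase, which was 1.71-fold higher (adjusted p = 2.26e-09). Markers of other cells moved with these differences. Of 5 measured myoepithelial markers 4 were higher in Wnt-1 tumors, and the mean level of this list ran from -0.32 to 0.99 in Wnt-1 tumors and from -2.05 to -0.67 in Neu tumors. Of 9 fibroblast and matrix markers 6 were higher, with list means from -1.16 to 0.64 in Wnt-1 tumors and from -2.22 to -0.13 in Neu tumors. Of 10 luminal markers 4 were higher and 2 lower by limma. Luminal list means ran from -0.14 to 0.83 in Wnt-1 tumors and from -0.61 to -0.07 in Neu tumors. These means include Krt19, with a log2 difference of 6.04, while the median difference over the 10 luminal markers was 0.25. Of 10 endothelial markers 6 were higher and 1 lower. Their part in the values of the 3 genes was not tested.

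The hyperplastic glands of MMTV-Wnt-1 mice were compared with virgin glands of the same age, a comparison in which 21.9% of all clones were called. Myc and Ccnd1 rose and the Ccnd2 clones were not called. Myc was at 1.35, 1.49 and 2.40 (lowest, median and highest) in the 7 hyperplastic glands, against -0.53, -0.15, -0.14, 0.003 and 0.28 in the 5 virgin glands. The groups were separate, and Myc was 3.51-fold higher in hyperplastic glands (log2 difference 1.81, SE 0.186, limma adjusted p = 6.75e-05). Ccnd1 was at -0.70, -0.27 and 1.03 (lowest, median and highest) in hyperplastic glands, against -1.78, -1.36, -0.90, -0.77 and -0.66 in virgin glands. It was 1.96-fold higher in hyperplastic glands (log2 difference 0.97, SE 0.266, limma adjusted p = 0.0184). Gland 9, the highest of the 7, stood apart from the others, and without it the log2 difference was 0.78 (limma adjusted p = 0.0128).

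Ccnd2 was lower in hyperplastic than in virgin glands by an amount that missed the threshold. Clone PP:6g4 was at -1.3, -0.42 and -0.10 (lowest, median and highest) in hyperplastic glands, against -0.63, -0.30, 0.63, 0.70 and 0.78 in virgin glands. Virgin glands 13 and 17 held the 2 low values and overlapped the hyperplastic glands. The log2 difference was -0.75 (95% interval -1.32 to -0.17, limma adjusted p = 0.0624), and it was called without virgin gland 13 (-0.96, adjusted p = 0.0126) or 17 (-0.88, adjusted p = 0.0389). Clone PP:24e3 had a log2 difference of -0.27 (95% interval -0.50 to -0.04, limma adjusted p = 0.0856), which was called without hyperplastic gland 11 (-0.31, adjusted p = 0.0493). With both clones averaged the difference was -0.51 (limma adjusted p = 0.0392). Virgin glands 13 and 17 were also the 2 lowest in Ccnd1, at -1.36 and -1.78, and the 2 highest in Myc, at 0.003 and 0.28. By clone PP:24e3 they were at 0.33 and 0.40, beside gland 27 at 0.38.

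Over all genes 9.58% were called higher and 14.3% lower in hyperplastic glands, with a median log2 difference of -0.02. Of 17 partners and inhibitors of D cyclins 1 was higher and 1 lower. Cdkn1a, which encodes the inhibitor p21, was at 0.32 in hyperplastic and -0.37 in virgin glands (adjusted p = 0.000398), and Cdkn2c, an inhibitor of Cdk4 and Cdk6, was at 0.85 in hyperplastic and 1.52 in virgin glands (adjusted p = 0.00574). With the arrays centred on their median, or quantile normalized, 3 partners were called higher. None of the 12 partners and antagonists of Myc was called by limma, and Max was at -0.25 in hyperplastic and -0.29 in virgin glands. Of 20 Myc target genes 7 were higher and 1 lower (median difference 0.25), among them Nop56, a partner protein of Nop58, with a 1.52-fold rise (adjusted p = 0.000289). Of 16 genes of S phase and mitosis 6 were higher and none lower (median difference 0.44), among them Prim1, a primase subunit, with a 2.06-fold rise (adjusted p = 0.00169). Of 13 Wnt and beta-catenin targets 6 were higher and 1 lower (median difference 0.38), among them the feedback inhibitor Nkd1, which was 2.32-fold higher (adjusted p = 0.000188). Adipocyte markers moved with these results: 13 of 15 were lower, and the list mean ran from 0.65 to 0.97 in hyperplastic and from 1.82 to 2.24 in virgin glands. Of 10 luminal markers 5 were higher and none lower by limma, with list means from -0.01 to 0.41 in hyperplastic and from -0.60 to -0.19 in virgin glands. Of 10 endothelial markers 5 were lower and 1 higher, with list means from -0.34 to -0.22 in hyperplastic and from -0.14 to 0.35 in virgin glands. The part of these cells in the values of the 3 genes was not tested.

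Wnt-1 tumors were then set against hyperplastic glands, where 41.7% of all clones were called. Ccnd1 and Ccnd2 clone PP:6g4 differed more than Myc here, and clone PP:24e3 was not called. Ccnd1 was 5.77-fold higher in the tumors (log2 difference 2.53, SE 0.170, limma adjusted p = 2.82e-13), and its 23 tumor values, all at 1.53 or above, did not overlap the 7 hyperplastic glands, which reached 1.03. Ccnd2 by clone PP:6g4 was 2.43-fold higher in the tumors (log2 difference 1.28, SE 0.187, limma adjusted p = 1.43e-06), again with no overlap. For clone PP:24e3 the log2 difference was 0.16 (95% interval -0.12 to 0.44, limma adjusted p = 0.364), so the call for Ccnd2 rests on 1 of its 2 clones. Myc was 1.5-fold higher in the tumors (log2 difference 0.58, SE 0.123, limma adjusted p = 0.000261), and 8 of 23 tumors lay above the highest hyperplastic gland.

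In this comparison 21.9% of all genes were called higher and 22.2% lower. Of 16 genes of S phase and mitosis 15 were higher in the tumors (median difference 0.87), among them Lig1, the replicative DNA ligase, with a 2.51-fold difference (adjusted p = 3.68e-10). Of 17 partners and inhibitors of D cyclins 8 were higher and 3 lower (median difference 0.27). Cdkn2c was lower, at 0.09 in tumors and 0.85 in hyperplastic glands (adjusted p = 4.62e-06), whereas Cdkn2d was higher, at -0.35 in tumors and -1.12 in hyperplastic glands (adjusted p = 1.36e-06). Of 12 partners and antagonists of Myc 6 were higher and 1 lower. Max was 1.46-fold higher, at 0.29 in tumors and -0.25 in hyperplastic glands (adjusted p = 1.02e-08), and Mga, a Max-binding repressor, was 1.69-fold higher (adjusted p = 8.02e-08). Of 20 Myc target genes 14 were higher and 1 lower (median difference 0.44), among them Nop58 with a 2.81-fold difference (adjusted p = 3.91e-09). Of 13 Wnt and beta-catenin targets 7 were higher and 2 lower, and Apcdd1, an inhibitor of Wnt signaling, was at 0.47 in tumors and 1.95 in hyperplastic glands (adjusted p = 2.58e-08). Adipocyte markers were lower in the tumors in 13 of 15 cases, with list means from -2.52 to -1.0 in tumors and from 0.65 to 0.97 in hyperplastic glands. The 7 skeletal muscle markers were lower, with list means from -1.81 to 0.60 in tumors and from 1.93 to 2.90 in hyperplastic glands. Of 9 fibroblast and matrix markers 6 were lower, and of 10 lymphocyte markers 6 were lower. The part of these cells in the values of the 3 genes was not tested.

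Both kinds of tumor were also set against the 5 virgin glands, which these comparisons share with that of the hyperplastic glands. In Wnt-1 tumors 49.4% of all clones were called, Ccnd1 was 11.3-fold higher (log2 difference 3.50, SE 0.182, limma adjusted p = 1.24e-15) and Myc 5.26-fold higher (log2 difference 2.39, SE 0.130, limma adjusted p = 2.82e-15). For both genes the 23 tumors lay above the 5 glands. Marker levels of other cells moved with this comparison. List means of adipocyte markers ran from -2.52 to -1.0 in the tumors and from 1.82 to 2.24 in virgin glands, and those of skeletal muscle markers from -1.81 to 0.60 in the tumors and from 2.49 to 3.24 in virgin glands. Fibroblast and matrix markers ran from -1.16 to 0.64 in the tumors and from 0.58 to 1.34 in virgin glands, and luminal markers from -0.14 to 0.83 in the tumors and from -0.60 to -0.19 in virgin glands. Their part in the values of the 3 genes was not tested. Ccnd2 was not called by clone PP:6g4 (log2 difference 0.54, 95% interval 0.05 to 1.02, limma adjusted p = 0.0602) or by clone PP:24e3 (-0.11, 95% interval -0.44 to 0.22, adjusted p = 0.609). The call for clone PP:6g4 depended on single glands: it passed without virgin gland 27 (0.63, adjusted p = 0.0474), 28 (0.67, adjusted p = 0.0337) or 29 (0.65, adjusted p = 0.0399).

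In Neu tumors 52.2% of all clones were called against virgin glands, and the genes moved in opposite directions. Ccnd1 was 5.66-fold higher (log2 difference 2.5, SE 0.226, limma adjusted p = 3.39e-08) and Myc 2.68-fold higher (log2 difference 1.42, SE 0.139, adjusted p = 9.01e-08). Ccnd2 fell to 0.192 of the level in virgin glands by clone PP:6g4 (log2 difference -2.38, SE 0.301, limma adjusted p = 2.49e-06) and to 0.253 by clone PP:24e3 (log2 difference -1.98, SE 0.137, adjusted p = 9.70e-10). By each of the 4 clones the 12 tumors and the 5 glands did not overlap, and the share of all clones without overlap was not counted. Each of the 4 clones had exact permutation p = 0.000162, the smallest that 12 against 5 arrays can give.

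Over all genes 26.8% were called higher and 28.8% lower in Neu tumors than in virgin glands. The 16 genes of S phase and mitosis were all called higher by limma (median difference 1.04), among them Cdk1, the mitotic kinase, with a 4.91-fold difference (adjusted p = 1.46e-09). Of 17 partners and inhibitors of D cyclins 5 were higher and 5 lower (median difference 0.01). Cdk6 was lower, at -0.47 in tumors and -0.06 in virgin glands (adjusted p = 0.00337). Of 20 Myc target genes 9 were higher and 3 lower (median difference 0.27), and Tfrc, the transferrin receptor, was 3.21-fold higher (adjusted p = 1.16e-06). Of 12 partners and antagonists of Myc 6 were higher and 2 lower, and Max was 1.45-fold higher (adjusted p = 0.000424). Of 13 Wnt and beta-catenin targets 4 were higher and 5 lower. Nkd1 was 4.27-fold higher (adjusted p = 5.73e-10), while Apcdd1 fell to 0.0838 of the level in virgin glands (adjusted p = 3.86e-10). Of 15 adipocyte markers 14 were lower, with list means from -2.13 to -1.28 in tumors and from 1.82 to 2.24 in virgin glands. Of 9 fibroblast and matrix markers 8 were lower, with list means from -2.22 to -0.13 in tumors and from 0.58 to 1.34 in virgin glands. Of 5 myoepithelial markers 4 were lower, with list means from -2.05 to -0.67 in tumors and from -0.13 to 0.22 in virgin glands. Of 7 skeletal muscle markers 6 were lower, with list means from -1.43 to 0.36 in tumors and from 2.49 to 3.24 in virgin glands. Endothelial markers were lower in 8 of 10 cases and lymphocyte markers in 7 of 10. The part of these cells in the fall of Ccnd2 was not tested.

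**Figure D2:**
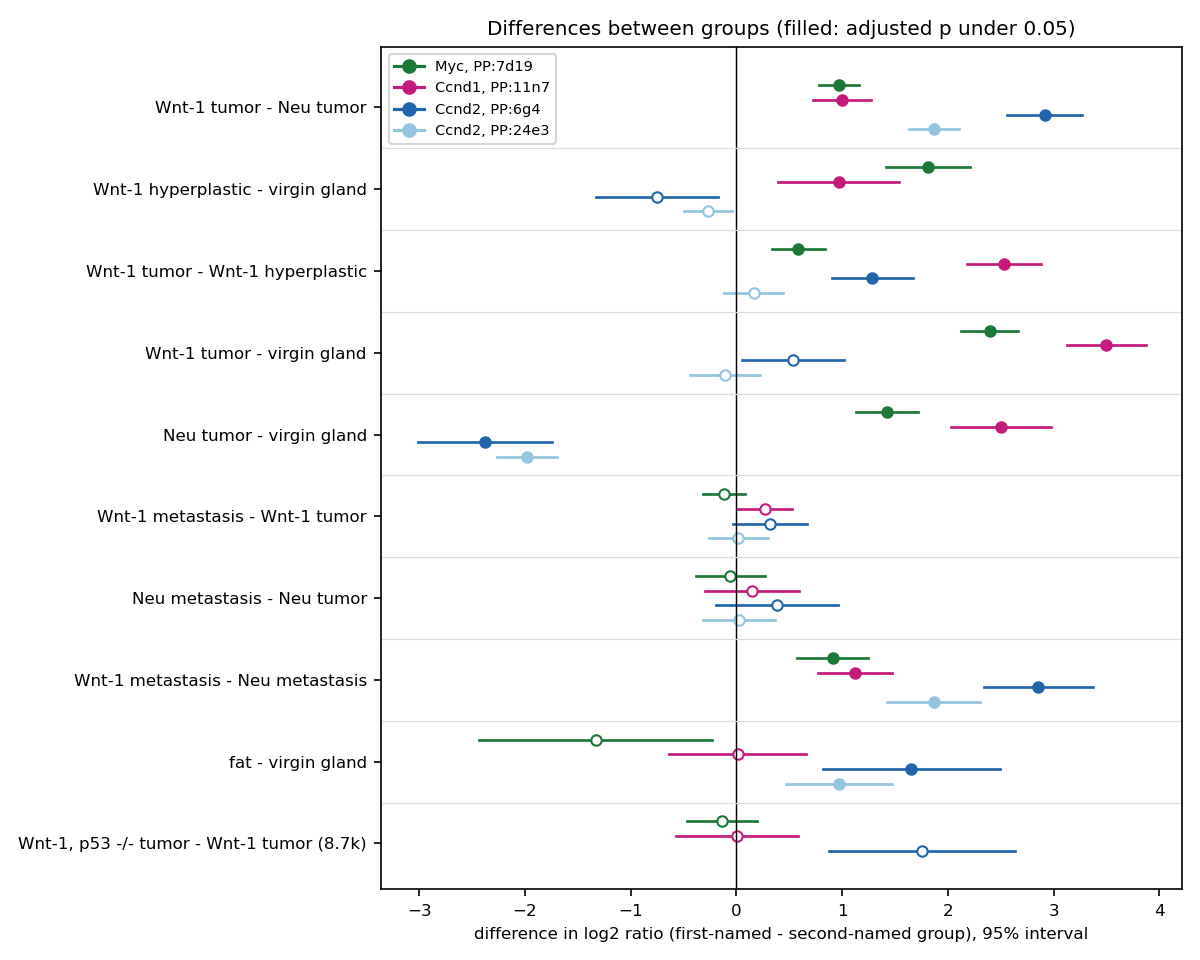
Difference in log2 ratio (horizontal axis, first-named minus second-named group) for each clone in 10 comparisons (vertical axis), with the 95% interval of the limma fit. Filled points passed an adjusted p under 0.05. Ccnd2 clone PP:6g4 has filled points from 2.92 for Wnt-1 tumors against Neu tumors to -2.38 for Neu tumors against virgin glands.

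Lung metastases were set against primary tumors of the same oncogene. None of the 4 clones was called by limma between metastases and primary tumors of MMTV-Wnt-1 mice, where 4.62% of all clones were called. Ccnd1 was the nearest to a call (2.67 in metastases and 2.40 in tumors, log2 difference 0.27, 95% interval 0.01 to 0.53, limma p = 0.0389, adjusted p = 0.234). For Myc the log2 difference was -0.12 (95% interval -0.31 to 0.08). The intervals of Ccnd2 ran from -0.03 to 0.67 for clone PP:6g4 and from -0.26 to 0.30 for clone PP:24e3. One metastasis, number 42, was the lowest of the 10 in Myc (1.66) and in Ccnd2 clone PP:6g4 (-0.16), and was at 2.58 in Ccnd1.

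Between the 5 metastases and the 12 primary tumors of Neu origin 0.189% of all clones were called by limma, none of them a clone of the 3 genes. Unadjusted p-values of the 4 clones ran from 0.179 to 0.889 by limma. The arrays of injected mice are numbered 53E and 56E, and metastases and tumors numbered 53 and 56 were also measured. No label states whether these arrays share a source tumor, and the fits took the 5 metastases as separate. Myc was at 0.69, 1.02 and 1.49 in metastases of MMTV-Neu mice and at 1.47 and 1.61 in injected mice. Ccnd1 was at 1.17, 1.47 and 1.89 in metastases of MMTV-Neu mice and at 1.3 and 1.93 in injected mice. Ccnd2 by clone PP:6g4 was at -1.90, -1.48 and -1.20 in metastases of MMTV-Neu mice, and lower, at -2.14 and -2.08, in injected mice. Clone PP:24e3 gave the same arrangement, with -1.38, -1.16 and -1.12 in metastases of MMTV-Neu mice and -2.08 and -1.52 in injected mice. The difference between these 3 and 2 arrays was not tested.

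The difference between metastasis and tumor was not shown to depend on the oncogene: 0.104% of all clones were called for the interaction, none of the 4 among them, with limma adjusted p between 0.922 and 0.997. The interval of the interaction ran from -0.41 to 0.29 for Myc and from -0.35 to 0.60 for Ccnd1. For Ccnd2 it ran from -0.70 to 0.57 by clone PP:6g4 and from -0.46 to 0.45 by clone PP:24e3. The titles of 7 metastases of MMTV-Wnt-1 mice carry the number of a primary tumor array. Myc was lower in the metastasis in 5 of these 7 pairs and higher in 2, with a median difference of -0.24. Ccnd1 was higher in 5 of 7 pairs, with a median difference of 0.21. Both Ccnd2 clones were higher in 4 pairs and lower in 3. In 3 such pairs of Neu origin both Ccnd2 clones were higher in the metastasis, by 0.22 to 1.21 for PP:6g4 and 0.30 to 0.55 for PP:24e3.

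**Figure D3:**
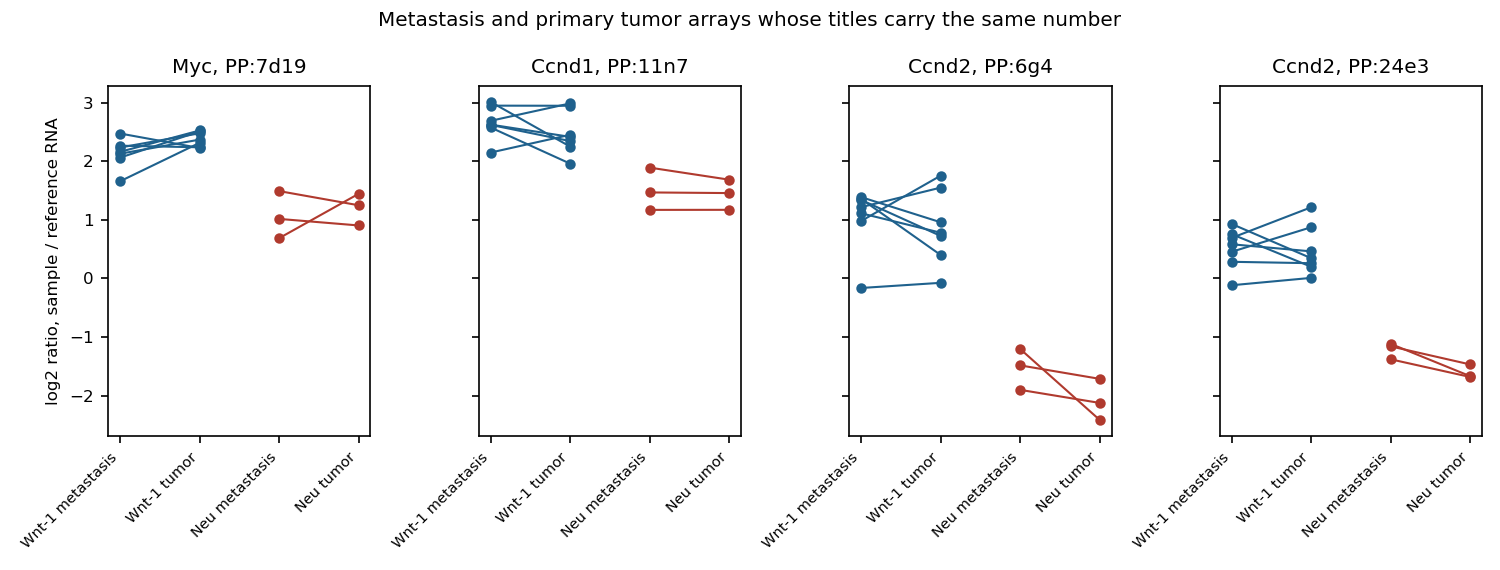
Log2 ratio of sample to reference (vertical axis) in metastases and primary tumors whose array titles carry the same number, joined by lines (7 for MMTV-Wnt-1, blue, and 3 for MMTV-Neu, red), for each clone. The lines of Ccnd2 slope downward from metastasis to tumor in the 3 Neu pairs and run both ways in the 7 Wnt-1 pairs.

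Between the metastases of the 2 oncogenes, where 21.6% of all clones were called, the 4 clones were called and no array overlapped. The share of all clones without overlap was not counted. Ccnd2 was 7.23-fold higher in metastases of MMTV-Wnt-1 mice by clone PP:6g4 (log2 difference 2.85, SE 0.242, limma adjusted p = 1.16e-06) and 3.65-fold higher by clone PP:24e3 (log2 difference 1.87, SE 0.206, adjusted p = 1.35e-05). Ccnd1 was 2.18-fold higher (log2 difference 1.12, SE 0.164, limma adjusted p = 0.000175) and Myc 1.88-fold higher (log2 difference 0.91, SE 0.159, adjusted p = 0.000769). The lung was part of what was measured: the mean level of 7 lung epithelial markers ran from -0.90 to 1.5 in metastases of MMTV-Wnt-1 mice, from -1.40 to 0.53 in metastases of MMTV-Neu mice and from -1.68 to -1.30 in injected mice. In the primary tumors it ran from -4.99 to -2.41 for Wnt-1 and from -3.28 to -2.39 for Neu. The part of lung tissue in the values was not tested.

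Fat was set against virgin glands, in which fat surrounds the ducts, and 9.09% of all clones were called. Ccnd2 was higher in fat by both clones. Clone PP:6g4 was at 1.75, 1.94 and 1.98 in fat, against -0.63, -0.30, 0.63, 0.70 and 0.78 in virgin glands, a 3.14-fold difference (log2 difference 1.65, SE 0.359, limma adjusted p = 0.0326). Clone PP:24e3 was at 1.00, 1.56 and 1.89 in fat, against 0.33, 0.38, 0.40, 0.70 and 0.73 in virgin glands, a 1.96-fold difference (log2 difference 0.97, SE 0.215, limma adjusted p = 0.0342). The groups did not overlap by either clone, and each had exact permutation p = 0.0179, the smallest that 3 against 5 arrays can give. Both calls were lost in several fits that left out 1 array, with limma adjusted p up to 0.0849 for clone PP:6g4 (without fat 45, fat 46 or virgin gland 17, 27 or 29). For clone PP:24e3 they reached 0.0813 (without fat 46 or virgin gland 13, 17, 27, 28 or 29). With quantile normalization they were lost too (adjusted p = 0.08 and 0.0621).

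Myc was at -2.79, -0.78 and -0.75 in fat, against -0.53 to 0.28 in virgin glands, and was not called (log2 difference -1.33, 95% interval -2.43 to -0.23, limma adjusted p = 0.117). The lowest of these fat samples, number 44, had the widest spread of all 15k arrays, with an SD of 2.59 over its clones. Ccnd1 was at -1.35, -0.99 and -0.90 in fat and did not differ from virgin glands beyond its spread (log2 difference 0.01, 95% interval -0.64 to 0.66, limma adjusted p = 0.976). The list mean of adipocyte markers ran from 2.29 to 2.90 in fat and from 1.82 to 2.24 in virgin glands. That of luminal epithelial markers ran from -4.35 to -1.97 in fat and from -0.60 to -0.19 in virgin glands. Their part in the Ccnd2 difference was not tested.

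Against the 35 primary tumors of both oncogenes 53.3% of all clones were called. Fat had 0.0953 of the Myc level of tumors (log2 difference -3.39, SE 0.345, limma adjusted p = 1.63e-10) and 0.113 of the Ccnd1 level (log2 difference -3.14, SE 0.353, adjusted p = 1.67e-09), with no overlap. Ccnd2 was higher in fat by clone PP:6g4 (log2 difference 2.12, SE 0.848, limma adjusted p = 0.0338) and by clone PP:24e3 (1.73, SE 0.550, adjusted p = 0.00800), and by each clone 2 of 3 fat samples lay above all tumors. The spread of the pooled tumors includes the Ccnd2 difference between the oncogenes. By clone PP:6g4 the SD was 1.49 over the 35 tumors, 0.455 in Wnt-1 tumors and 0.590 in Neu tumors. This clone averaged 1.89 in fat, 0.77 in Wnt-1 tumors and -2.14 in Neu tumors, so 2.12 describes neither kind of tumor alone. These Ccnd2 calls were lost without fat 44 (adjusted p = 0.12 for PP:6g4 and 0.0729 for PP:24e3), and for PP:6g4 also without fat 45 (0.0912) or fat 46 (0.0769).

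On the 8.7k arrays tumors of p53 -/- mice were compared with other Wnt-1 tumors, and 0.442% of all clones were called. The 3 clones of Myc, Ccnd1 and Ccnd2 were not among them. Ccnd2 by clone PP:6g4 came close. It was at 0.05, 1.20, 2.51, 2.66, 2.77 and 2.92 in the 6 p53 -/- tumors, against a lowest value of -0.97, a median of 0.12 and a highest value of 1.42 in the 10 other tumors. Of the p53 -/- tumors 4 lay above the other 10 tumors, and numbers 87 (0.05) and 89 (1.20) lay within the range of those 10. The mean was 2.02 ± 1.15 in p53 -/- tumors (SD, n = 6) and 0.26 ± 0.703 in the other tumors (n = 10), a ratio of 3.37. The log2 difference was 1.75 (95% interval 0.88 to 2.63, limma p = 0.000552, adjusted p = 0.0619). In an exact permutation test of this clone alone p was 0.00275. Without p53 -/- tumor 87 the log2 difference was 2.15 and was called (limma adjusted p = 0.0142), and without any other p53 -/- tumor it was 1.57 to 1.92 and was not.

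Myc and Ccnd1 were not called either. Myc was at 1.39, 1.75, 1.88, 1.91, 2.33 and 2.38 in p53 -/- tumors, against 1.66 to 2.60 with a median of 2.11 in the other tumors (log2 difference -0.14, 95% interval -0.47 to 0.19, limma adjusted p = 0.724). Ccnd1 was at 1.05, 1.98, 2.03, 2.61, 2.90 and 2.97 in p53 -/- tumors, against 1.52 to 2.99 with a median of 2.32 in the other tumors (log2 difference 0.01, 95% interval -0.57 to 0.58, limma adjusted p = 0.995). Tumor 87 was the lowest p53 -/- tumor in Ccnd1 and in Ccnd2 and the highest in Myc.

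Over all genes 0.192% were called higher and 0.314% lower in p53 -/- tumors. Of the pathway lists no gene was called by limma. An unadjusted p under 0.05 was found for 1333 of all 8832 clones. On the lists it was found for 4 of 15 genes of S phase and mitosis, 3 of 18 Myc target genes and 1 of 12 Myc partners, with higher values, and for 1 of 15 partners and inhibitors of D cyclins, with a lower value. Rb1, which encodes the target of cyclin D kinases, was at -0.67 in p53 -/- and 0.49 in the other tumors (adjusted p = 0.0759). Cdkn1a, a target gene of p53, was at 0.12 in p53 -/- and 0.24 in the other tumors (adjusted p = 0.930). None of 6 luminal markers was called by limma, and 3 had an unadjusted p under 0.05, each with a lower value. The mean level of the 6 ran from -1.27 to -0.05 in p53 -/- tumors and from -0.12 to 0.70 in the other tumors. These ranges overlapped. Of 5 lymphocyte markers none was called by limma, and 3 had an unadjusted p under 0.05, each with a lower value. The part of these cells in the Ccnd2 values was not tested.

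**Figure D4:**
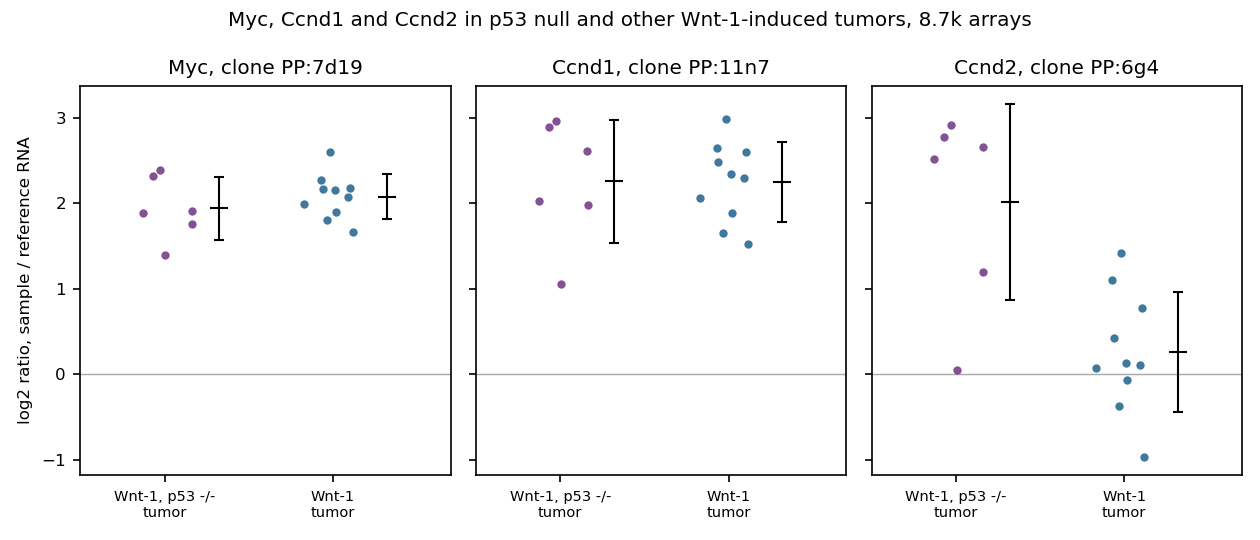
Log2 ratio of sample to reference (vertical axis) for Myc, Ccnd1 and Ccnd2 in 6 p53 -/- tumors and 10 other Wnt-1 tumors (horizontal axis) on the 8.7k arrays. Points are arrays and black bars are the group mean with its SD. In Ccnd2 4 p53 -/- tumors lie above the other 10 tumors, and numbers 87 and 89 lie within the range of those 10. The groups also overlap in Myc and Ccnd1.

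The clones were also compared with each other within groups. Over 21 pairs of clones in 4 groups of 10 or more arrays, the relation that passed adjustment by both coefficients was that of Ccnd1 with Ccnd2 clone PP:6g4 in the 23 Wnt-1 tumors of the 15k arrays. Pearson's r was 0.65 (permutation p = 0.0007, adjusted p = 0.0147) and Spearman's rho 0.72 (p = 0.00017, adjusted p = 0.00357), and r was 0.62 without the 2 tumors farthest from the median of Ccnd1. On the 10 Wnt-1 tumors of the 8.7k arrays r was 0.63 (permutation p = 0.0496, adjusted p = 0.26) and rho 0.70 (p = 0.0303, adjusted p = 0.191), and r was 0.77 without the 2 farthest tumors. In the 12 Neu tumors r was 0.004 (permutation p = 0.991, adjusted p = 0.999) and rho 0.01 (p = 0.991, adjusted p = 1), and r was -0.23 without the 2 farthest tumors. Ccnd2 clone PP:24e3 had a lower coefficient with Ccnd1 in the 23 tumors, with r of 0.24 (permutation p = 0.265, adjusted p = 0.626) and rho of 0.42 (p = 0.0445, adjusted p = 0.191), and r was 0.19 without the 2 farthest tumors. The difference between these groups or clones was not tested. Myc and Ccnd1 had r of 0.21 in Wnt-1 tumors (permutation p = 0.338, adjusted p = 0.626) and of 0.03 in Neu tumors (p = 0.914, adjusted p = 0.999), with rho of 0.17 (p = 0.425, adjusted p = 0.811) and 0.10 (p = 0.765, adjusted p = 0.894). Without the 2 tumors farthest from the median of Myc their r was 0.23 in Wnt-1 tumors and 0.26 in Neu tumors. The sign was the opposite in the 10 Wnt-1 tumors of the 8.7k arrays, with r of -0.31 (permutation p = 0.387, adjusted p = 0.626) and rho of -0.31 (p = 0.385, adjusted p = 0.809), and r was -0.09 without the 2 farthest. In the 10 metastases of MMTV-Wnt-1 mice r was -0.34 (permutation p = 0.342, adjusted p = 0.626) and rho -0.39 (p = 0.266, adjusted p = 0.698), and r was -0.75 without the 2 farthest. The labels name no batch of arrays. Without the 2 Wnt-1 tumors whose arrays had an SD over 1.3, r of Ccnd1 with Ccnd2 clone PP:6g4 was 0.62.

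Both clones of Ccnd2 had r of 0.91 over all 65 arrays, a description that includes the differences between tissues. The SD over these arrays was 1.39 for clone PP:6g4 and 0.94 for clone PP:24e3. Inside the Wnt-1 tumors they had r of 0.62 (permutation p = 0.00146, adjusted p = 0.0153) and rho of 0.52 (p = 0.0116, adjusted p = 0.122). Without the 2 tumors farthest from the median of clone PP:24e3 r was 0.62. The clones are different stretches of cDNA, and PP:24e3 gave the smaller difference in each 15k comparison named above.

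**Figure D5:**
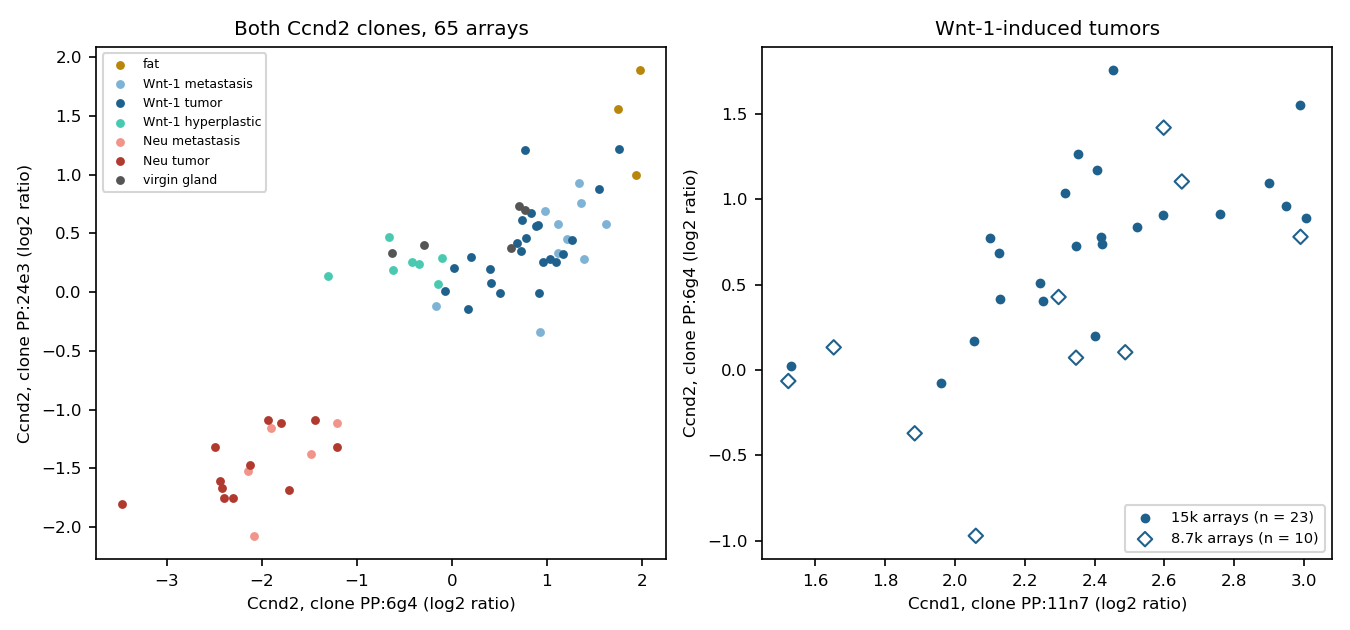
Left, log2 ratios of the Ccnd2 clones PP:6g4 (horizontal axis) and PP:24e3 (vertical axis) on the 65 arrays of the 15k type, colored by tissue. Right, log2 ratios of Ccnd1 (horizontal axis) and Ccnd2 clone PP:6g4 (vertical axis) in Wnt-1 tumors on 23 15k arrays (filled circles) and 10 8.7k arrays (open diamonds). Neu-derived arrays form the low corner of the left plot. On the right r was 0.65 on the 15k arrays (permutation test, adjusted p = 0.0147) and 0.63 on the 8.7k arrays (adjusted p = 0.26). Ccnd2 clone PP:24e3, not drawn on the right, had r of 0.24 with Ccnd1 on the 15k arrays (adjusted p = 0.626).

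The genes most like each member were named by Pearson's r over the 65 arrays, with clones averaged per gene and Myc, Ccnd1 and Ccnd2 left out. These arrays share their tissues, and r is given as a description. For Myc they were LTO1 (r = 0.94), Hmgb2 (0.92), Larp1b (0.91), Mcm7 (0.90) and Rpl8 (0.89). For Ccnd1 they were Bak1 (0.94), Snrpa (0.92), Smn1 (0.92), Mfge8 (0.90) and Hnrnpul1 (0.89). For Ccnd2 they were Ptges (0.94), Antxr1 (0.90), Dpysl3 (0.89), Phlda3 (0.89) and Plxna1 (0.88). Myc and Ccnd1 themselves had r of 0.76, whereas Ccnd2 had r of 0.04 with Myc and 0.09 with Ccnd1.

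Ptges, which encodes a prostaglandin E synthase, followed the low level of Ccnd2 in Neu tumors: it averaged 0.66 ± 0.300 in Wnt-1 tumors (SD, n = 23), -2.07 ± 0.456 in Neu tumors (n = 12) and 1.27 ± 0.214 in fat (n = 3). Hmgb2, a chromatin protein of dividing cells, averaged 0.26 ± 0.341 in Wnt-1 tumors, -1.04 ± 0.266 in Neu tumors and -2.15 ± 0.321 in virgin glands (n = 5). Bak1, a mediator of apoptosis, spanned a smaller range than Ccnd1, with 0.70 ± 0.206 in Wnt-1 tumors, 0.28 ± 0.144 in Neu tumors and -0.50 ± 0.368 in virgin glands.

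Likeness was also taken within tumors, as r of the deviations from the mean of each oncogene over 35 primary tumors. For Myc it was highest with Wdr5b (0.64), Trmt1 (0.56), G6pc3 (0.56), Phlda3 (0.56) and Tle4 (0.54). For Ccnd1 it was highest with Ldah (0.73), Ankrd46 (0.68), Cbx5 (0.68), Cd81 (0.67) and LTO1 (0.66). For Ccnd2 it was highest with Prr3 (0.60), Fam53b (0.56), Adgrl1 (0.54), Alg1 (0.53) and Il17d (0.52). LTO1 is the neighbor of Ccnd1 in the mouse genome, and the spans of both genes overlap in the RefSeq table of assembly GRCm38.p6. A spotted cDNA does not tell strands apart, and whether either clone lies in the overlap was not examined. LTO1 averaged 2.77 ± 0.289 in Wnt-1 tumors (n = 23), 1.86 ± 0.487 in hyperplastic glands (n = 7), 1.70 ± 0.508 in Neu tumors (n = 12) and -0.47 ± 0.181 in virgin glands (n = 5). Over the 65 arrays it had r of 0.86 with Ccnd1, lower than its r with Myc. Within the 35 primary tumors the order was the reverse. There the deviations of LTO1 had r of 0.66 with Ccnd1 and 0.23 with Myc.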

How the data were processed

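The authors scanned the slides with GenePix, scored spot quality, normalized each array and deposited log2 ratios of sample (Cy5) to reference (Cy3). The quality filter of the methods was not repeated here. The 15k table holds 15360 clones on 65 arrays with 8 missing values, and the 8.7k data hold 8832 clones. Arrays are the limit on precision. Clone symbols came from the platform tables. A single symbol was carried by 11860 clones of the 15k type, for 7766 genes.

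Groups were compared within an array type by moderated linear models (limma 3.58.1 under R 4.3.3, two-sided, each fitted to its own groups alone), with Benjamini-Hochberg adjusted p under 0.05 over all clones measured on 50% or more of the arrays, and on 2 or more, in both groups. Folds are ratios of geometric means. Permutation tests of a difference of means were two-sided, exact where a group had under 10 arrays and with 100000 permutations otherwise. The fits were tested on simulated data. Lists left out the 3 genes. Named are their clones, genes among the 3 of smallest adjusted p on a list, and the 5 genes most like each. Ccnd3, Max, Mxi1, Mxd4, Cdkn2d and Cdkn1a were also named after their values were seen, outside this rule. So were Mga in Wnt-1 tumors against Neu tumors and Cdk6 in Neu tumors against glands. Marker lists covered adipocyte, luminal, myoepithelial, lung, endothelial, lymphocyte, macrophage, fibroblast and muscle cells. The genes, lists and tests were chosen with earlier results of these data known. Alternatives were scaling, variance model, filters, all groups in one fit, clones averaged per gene, single arrays left out and a replicate block. Tests between neighbors, scaling of lists and fits of numbered arrays without the block were added after the values were seen. A further 8.7k comparison is left out here.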

Additional observations from a re-analysis of the deposited data

Results flagged for a closer look

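Each clone was looked at in each group of 4 to 10 arrays, which made 22 sets of values that share their arrays. In 2 of them one array stood far from the others, where chance flags about 1 set in 20. Ccnd1 (clone PP:11n7) was at 1.03 in hyperplastic gland 9, while the next of the 7 glands was at -0.15. Ccnd2 (clone PP:6g4) was at -0.16 in metastasis 42 of an MMTV-Wnt-1 mouse, while the next of the 10 metastases was at 0.92. The primary tumor array with the number 42 was also the lowest of the 23 Wnt-1 tumors by this clone, at -0.07, and it had an SD of 1.78 over its clones.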

How the results depend on the processing

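The calls of Myc and Ccnd1 in tumors against glands, and of the 4 clones between the oncogenes, kept their direction and side of the threshold under every alternative run. Over all alternatives the value of a single clone kept both in 581 cases, passed the threshold anew in 14, lost it in 27 (4 of them at a permutation threshold that could not be reached) and changed sign in 24. Counts of called clones stayed within 1.5 times in 115 cases and moved in 28. Causes were not tested.

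With clones averaged per gene, Ccnd2 had a log2 difference of -0.51 between hyperplastic and virgin glands (limma adjusted p = 0.0392), 0.72 between Wnt-1 tumors and hyperplastic glands and 0.21 between Wnt-1 tumors and virgin glands. For Wnt-1 tumors against virgin glands, clone PP:6g4 was called with centred arrays (0.59), with quantile normalization (0.71) and without arrays of an SD over 1.3 (0.58). For fat against virgin glands, quantile normalization gave 0.55 (PP:24e3) and 1.17 (PP:6g4), both no longer called. One fit of all groups called Myc (-1.33) and 4532 clones, and Ccnd1 was at -0.079 without arrays of an SD over 1.3. For fat against tumors, the Ccnd2 calls were lost with quantile normalization (1.26 for PP:24e3 and 1.49 for PP:6g4) and without arrays of an SD over 1.3 (1.55 and 2.10). At the methods' permutation threshold of 0.001, not passed were both Ccnd2 clones in fat against tumors (1.73 for PP:24e3 and 2.12 for PP:6g4). This threshold cannot be reached with 7 against 5 arrays (smallest exact p = 0.00126) or 3 against 5 (smallest exact p = 0.0179). It therefore says nothing about Ccnd1 (0.97) and Myc (1.81) in hyperplastic glands or about Ccnd2 in fat against virgin glands (0.97 for PP:24e3 and 1.65 for PP:6g4).

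Between Neu metastases and tumors, PP:24e3 was at -0.073 with quantile normalization, and the count of 29 called clones became 17 with a variance trend and robust fit and 56 in one fit of all groups. For the interaction, quantile normalization gave 0.14 (PP:24e3), 0.15 (PP:6g4) and a count of 25 against 16. With only the 3 metastases that arose in MMTV-Neu mice, Myc was at 0.13 and the count at 10. For MMTV-Wnt-1 metastases the count was 337 without arrays of an SD over 1.3. For p53 -/- tumors, the count of 39 became 22 with centred arrays, 5 with quantile normalization, 63 with a variance trend and robust fit and 60 in one fit, and Ccnd1 was at -0.30 with quantile normalization.

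Leaving out single arrays gave ranges of -0.31 to -0.21 (PP:24e3) and -0.96 to -0.61 (PP:6g4) for hyperplastic glands, and 0.32 to 0.67 (PP:6g4) for Wnt-1 tumors against virgin glands. For Neu metastases against tumors they were -0.061 to 0.18 (PP:24e3), -0.15 to 0.084 (Myc) and 12 to 29 called clones. For fat against virgin glands they were 0.77 to 1.21 (PP:24e3), 1.44 to 1.79 (PP:6g4), -0.16 to 0.15 (Ccnd1) and 577 to 2016 called clones. For fat against tumors they were 1.52 to 1.97 (PP:24e3) and 2.07 to 2.19 (PP:6g4). For p53 -/- tumors they were 1.57 to 2.15 (PP:6g4), -0.13 to 0.25 (Ccnd1) and 0 to 86 called clones. The count was 0 by limma without tumor 88, 90 or 91, where 1215, 1279 and 1273 clones had an unadjusted p under 0.05. For the interaction they were -0.16 to 0.079 (PP:24e3), -0.16 to 0.077 (PP:6g4), -0.20 to 0.029 (Myc) and 12 to 29 called clones.

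Numbers in the titles were also used as a replicate block. Deviations of same-numbered arrays had r of -0.06 to 0.29 over 7 pairs and -0.01 to 0.12 over 3 pairs, and 1 of the 7 and 0 of the 3 metastases were most like the tumor of their own number. With the block, 102 clones were called for MMTV-Wnt-1 (176 on the same arrays without pairing) and 5 for Neu (2 without pairing). The block gave Ccnd1 0.18, Myc -0.24, PP:6g4 0.16 and PP:24e3 0.03 for MMTV-Wnt-1, and 0.07, -0.13, 0.55 and 0.39 for Neu, and none of these clones was called.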
